A study of Saccharomyces cerevisiae with 26 samples.

Results

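The genes of the 26S proteasome and RPN4, the transcription factor that serves them, were followed in messenger RNA from budding yeast, in 26 libraries of 8 combinations of strain and medium. The members were 34 open reading frames, taken by identifier from the 6692 in the count table. They comprise 14 genes of the 20S core (PRE1 to PRE10, PUP1 to PUP3 and SCL1), 10 genes of the 19S base (RPT1 to RPT6, RPN1, RPN2, RPN10 and RPN13), 9 genes of the 19S lid (RPN3, RPN5 to RPN9, RPN11, RPN12 and SEM1) and RPN4 (YDL020C). In SCEG, whose carbon sources are 2% ethanol and 2% glycerol, H3A110Ccup1F8* and cup1F8* had 4 libraries each, and H3A110Cgsh1Δ, gsh1Δ, H3A110C and WT had 3 each. In SC, which has 2% glucose in their place, H3A110C and WT had 3 libraries each. All strains came from BY4741, a MATa laboratory strain of the S288C background that lacks HIS3, LEU2, MET15 and URA3 function, in which the histone H3 gene HHT2 had been deleted and put back. In strains with H3A110C, both histone H3 genes (HHT1 and HHT2) encode cysteine in place of the alanine. In strains with gsh1Δ, GSH1, which encodes the first enzyme of glutathione synthesis, is replaced by a KanMX6 cassette, and such strains need glutathione from outside to grow. How much of it these cultures received is not given in the sources used here. In strains with cup1F8*, every copy of the metallothionein gene CUP1 carries a stop codon.

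Reads counted on genes ranged between 2917138 and 12305863 per library, and the lowest count of any member in any library was 301, so that sampling error was small for all 34. GSH1 had 0 counts in all 6 libraries with gsh1Δ, against 107 to 198 normalized CPM (CPM is a count divided by its library's size, here after scaling by edgeR's TMM factors) in the other SCEG libraries. CUP1-1 and CUP1-2 were listed at 0 in all 20 SCEG libraries, WT included, and do not check the cup1F8* strains. In SC, CUP1-1 had means of 72.6 (WT) and 86.8 (H3A110C) normalized CPM, and CUP1-2 of 30.8 and 47.8. Why these genes are at 0 in SCEG only was not tested, and whether both media were counted alike is not known. In the sample descriptions, some run-style numbers of the 8 libraries with cup1F8* and of the SC libraries recur among the other SCEG libraries, while the columns of the count table number all SCEG libraries in 1 series. In that series the libraries with cup1F8* come last. They had 7579367 to 10133258 reads counted and TMM factors of 1.09 to 1.11. The other 12 SCEG libraries had 2917138 to 6013267 reads and factors of 0.989 to 1.07, with no overlap in either. The SC libraries had 9428849 to 12305863 reads. Whether the libraries were made or sequenced in separate sets is not stated, and such a set could not be told apart from cup1F8* or from medium. In SC, library B of each strain stood apart from the other two, with a chi-square per gene of 104 to 150 against 3.80 and 9.94 between A and C. In SCEG, H3A110Cgsh1Δ replicate 2 stood apart from replicates 1 and 3 (42.2 and 23.1, against 5.75 between those), and counts of called members are also given without these libraries.

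The 26S proteasome degrades proteins that carry ubiquitin chains. The 20S core is a barrel of stacked rings whose inner beta rings hold the peptidases (encoded by PRE3, PUP1 and PRE2) and whose outer alpha rings gate the entrance. The 19S particle caps it: the base holds the Rpt ATPases, which unfold substrates, with the scaffolds Rpn1 and Rpn2 and the ubiquitin receptors Rpn10 and Rpn13, and the lid holds the deubiquitinase Rpn11. In yeast, Rpn4 binds a short promoter element called PACE (proteasome-associated control element) in most of these genes and is itself a very short-lived substrate of the proteasome, which forms a feedback loop.

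The element is shown here because it is what most of the members' promoters share. The choice of members did not use it, but it is already known from most of these genes. Its share among them is therefore a description and no independent result. In the R64 genome of S288C, the window between 250 bases before and 50 bases after the start codon was searched on both strands for GGTGGCAAA. This motif was found in 27 of the 34 members (79.4%) and in 1.19% of 5985 windows over protein-coding genes. The shorter form GTGGCAAA, which every match to the first also contains, was found in 30 members (88.2%) and in 2.39% of the windows. No window held more than 1 copy of the longer motif among the members. The 27 copies lay 75 to 174 bases before the start codon, with a median of 111, and 19 of them read in the direction of the gene. PRE5, PUP1 and RPN8 held the shorter form only, and RPN4, RPN10, RPN13 and SEM1 held neither. The stretches around the motif are given for genes on which the results below turn, from each subunit group, with the motif in capitals and 10 bases on either side, each written in the direction in which the motif reads:
RPN9: gctttcatccGGTGGCAAAagtaagaaca
RPN5: ttgacttttcGGTGGCAAAatgcaaaggg
RPN3: ctctttcttgGGTGGCAAAtgtttttcgt
RPN8: ggatacctcaGTGGCAAAtcgttactca
RPT1: ttagttttcgGGTGGCAAAattcggtaat
PRE2: acagcaaaagGGTGGCAAAacgaagaata
PRE10: cctctaaatcGGTGGCAAAaataagaaag
PUP1: acccggccgaGTGGCAAAataccaaaaa
In R64 coordinates these lie at chrIV:1322086-1322114 on the plus strand (RPN9), chrIV:190776-190804 on the plus strand (RPN5), chrV:196843-196871 on the minus strand (RPN3), chrXV:817085-817112 on the minus strand (RPN8), chrXI:174048-174076 on the minus strand (RPT1), chrXVI:732184-732212 on the plus strand (PRE2), chrXV:1018856-1018884 on the minus strand (PRE10) and chrXV:631891-631918 on the minus strand (PUP1). The 34 genes are spread over 13 chromosomes, 1 of them (PRE3) has an intron, and every 50-base window of their coding sequences occurs once in the genome. No member overlaps another gene of the count table among the 6008 of 6692 identifiers found in the R64 annotation, and the rest could not be searched.

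Levels were compared between genes per kilobase of coding sequence. In WT in SCEG, the 33 subunit genes had between 97.8 (RPN9) and 359 (SEM1) normalized CPM per kilobase, with a median of 263. The median was 289 for the 20S core, 237 for the base and 222 for the lid. RPN9, which encodes a scaffold subunit of the lid, was the lowest subunit gene per kilobase in 6 of the 8 groups, and in neither group with cup1F8*. RPN4 had 106 ± 17.2 CPM per kilobase in WT in SCEG (SD, n = 3). These values are shares of each library's reads, so that a change in the total amount of mRNA per cell would not be seen in them.

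RPN4 mRNA was highest in the strains with cup1F8* and lowest in SC. It had 376, 401, 373 and 364 normalized CPM in H3A110Ccup1F8*, and 258, 265, 302 and 291 in cup1F8*. In H3A110Cgsh1Δ it had 267, 172 and 241 CPM, and in gsh1Δ 184, 204 and 174. The other SCEG groups had 128, 139.6 and 181 CPM (H3A110C) and 163, 145 and 199 (WT), and the SC groups 107, 116 and 105 (H3A110C) and 109, 121 and 118 (WT). Every library with cup1F8* was thus above every WT and H3A110C library, and the ranges of gsh1Δ, H3A110Cgsh1Δ, H3A110C and WT in SCEG overlapped one another.

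**Figure D1:**
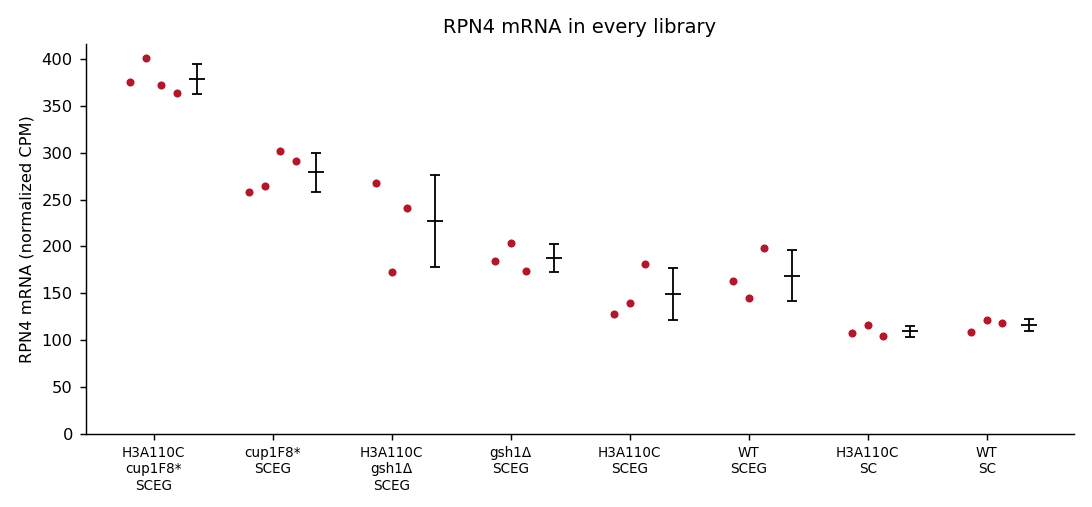
RPN4 mRNA in normalized CPM (vertical axis, from 0) in each of the 26 libraries (points), by strain and medium (horizontal axis), with the mean and SD of each group as a bar beside the points. The 4 H3A110Ccup1F8* libraries sit between 364 and 401 CPM, above every other library, and the 6 SC libraries lie at 105 to 121.

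The comparison of cup1F8* with WT in SCEG asks how the genes responded when cells lacked functional metallothionein. Most proteasome genes were higher in cup1F8*, and the lid had the highest median. A gene counted as called when its p from the quasi-likelihood test of edgeR, adjusted over all genes tested by the Benjamini-Hochberg method, was below 0.05. Of the 34 members, 24 were called higher and 1 lower, where 34.3% of 5904 genes were called higher and 34.8% lower. By group, 7 of 9 lid genes, 7 of 10 base genes and 9 of 14 genes of the 20S core rose, and the median log2 fold change was 0.57 for the lid, 0.32 for the base and 0.19 for the core, beside 0.00 over all genes. RPN4 rose by 0.68 on the log2 scale (standard error 0.106, edgeR adjusted p = 0.00023).

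RPN9 had 257, 270.3, 271 and 252 CPM in cup1F8*, against 109, 108 and 129.7 in WT. This was the largest change among the members in this comparison, with a log2 fold change of 1.14 (standard error 0.0786, edgeR adjusted p = 7.69e-07), and the groups were far apart. RPN5, another scaffold subunit of the lid, had 591, 579, 587 and 586 CPM in cup1F8*, against 281, 286 and 325 in WT (log2 fold change 0.93, standard error 0.0691). RPN3 and RPN8 rose by 0.82 and 0.72, and RPN8 is the partner of the deubiquitinase RPN11, whose own log2 fold change was 0.24. Of the lid genes, RPN7 (0.12) and SEM1 (0.02) were not called. In the base, the ubiquitin receptor genes differed: RPN13 rose by 0.76, while RPN10 was at -0.07 and not called. The ATPase genes RPT1, RPT2, RPT4, RPT5 and RPT6 rose by 0.29 to 0.43, and RPT3 (0.12) was not called.

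In the 20S core, the largest rises were those of PUP2, an alpha ring gene (0.53), and PUP1, which encodes the trypsin-like peptidase (0.48). PRE7, a beta ring gene, was the smallest rise called, with 245, 240.5, 244 and 236 CPM in cup1F8*, against 205, 202 and 224 in WT (log2 fold change 0.15, standard error 0.0589, edgeR adjusted p = 0.0401). Without cup1F8* replicate 1, 2 or 3 or WT replicate 1 or 2, PRE7 was no longer called (adjusted p between 0.0724 and 0.113). PRE8, an alpha ring gene, was the only member called lower, with 177, 159, 191 and 165 CPM in cup1F8*, against 177, 193 and 228 in WT (log2 fold change -0.25, standard error 0.0969, edgeR adjusted p = 0.0423). Its groups overlapped, and the call was lost without cup1F8* replicate 1, 2 or 4 or WT replicate 2 or 3 (adjusted p between 0.0582 and 0.177).

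**Figure D2:**
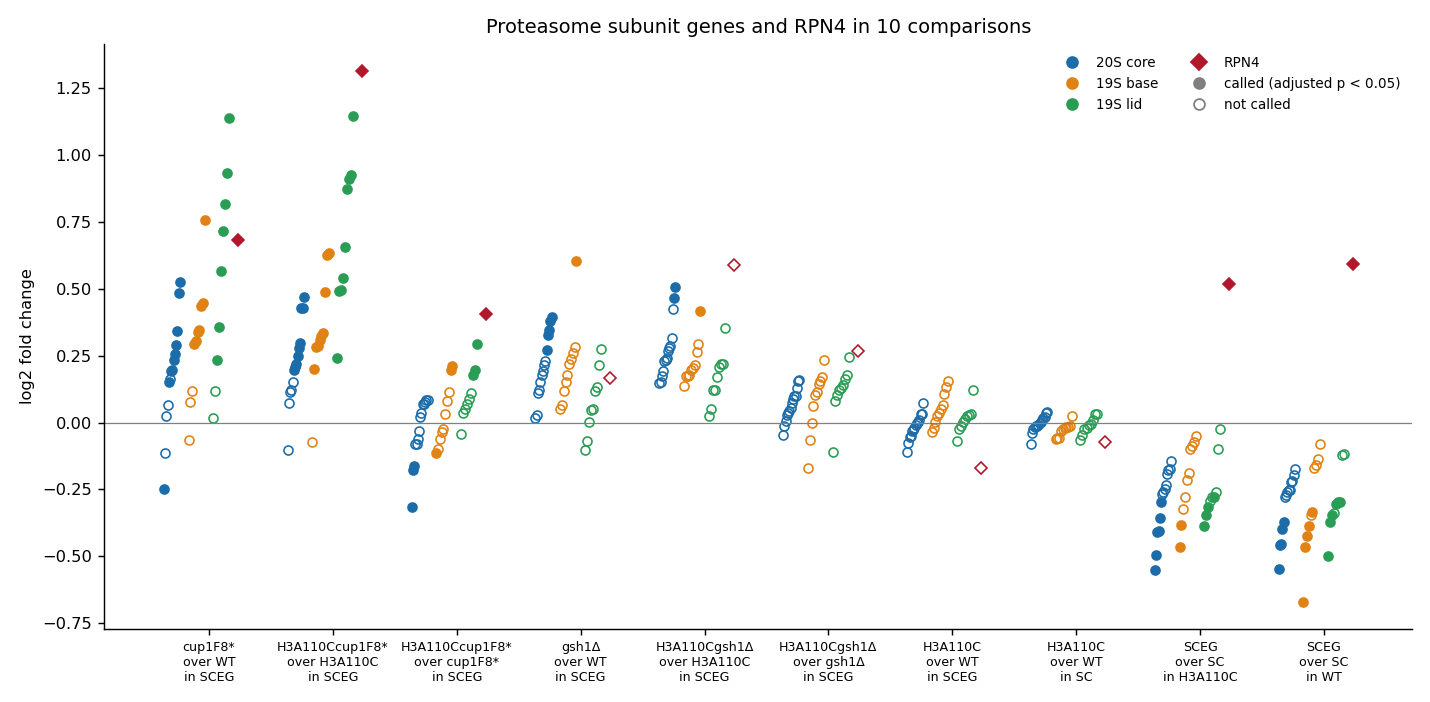
The log2 fold change (vertical axis) of each of the 34 genes in 10 comparisons (horizontal axis), by subunit group and for RPN4 (colour), filled where the gene was called and open where it was not. In cup1F8* over WT, lid genes reach 1.14, 20S genes lie between -0.25 and 0.53, and in H3A110C over WT no point is filled.

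The comparison of H3A110Ccup1F8* with H3A110C shares no library with that of cup1F8* with WT. In H3A110Ccup1F8* against H3A110C, 28 of the 34 members were called higher and 0 lower in edgeR, where 35.1% of 5873 genes were called higher and 33.9% lower, and 0 members were lower at an unadjusted p below 0.05 or in DESeq2. All 9 lid genes, 9 of 10 base genes and 9 of 14 core genes rose. The medians were 0.66 for the lid, 0.32 for the base and 0.21 for the core. RPN4 had the largest change, a rise of 1.32 on the log2 scale (standard error 0.102, edgeR adjusted p = 4.22e-07). RPN9 had 272, 289, 289.8 and 277 CPM in H3A110Ccup1F8*, against 114, 126 and 136 in H3A110C (log2 fold change 1.14, standard error 0.0711). The smallest rises called were those of PRE9, an alpha ring gene, and the scaffold gene RPN1. PRE9 had 274, 276, 274 and 268 CPM in H3A110Ccup1F8*, against 253, 203 and 247 in H3A110C (log2 fold change 0.20, standard error 0.0723), and RPN1 had 725, 738, 763 and 778, against 620.3, 621 and 688 (0.20, standard error 0.0612). The call of PRE9 was lost without H3A110Ccup1F8* replicate 1, 2 or 3 or H3A110C replicate 2 (adjusted p between 0.0535 and 0.171), and that of RPN1 without H3A110C replicate 1 (adjusted p = 0.0762). SCL1, PRE6, PRE8, PRE10, PUP3 and RPN10 were not called.

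Under scaling by total counts alone, the median of all genes was 0.16 in cup1F8* over WT and 0.12 in H3A110Ccup1F8* over H3A110C. Then 29 and 32 members were called higher and 0 lower, beside 43.8% and 41.6% of all genes called higher and 27.4% and 27.3% lower. Relative to that median, the subunits' median was 0.28 and 0.29 higher under this scaling, and 0.29 in both comparisons under TMM. A change of scaling moves all genes by nearly the same amount, so that these values could hardly differ and are no check of the rises.

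The balance of lid and core genes was also read within each library, where the scaling between libraries drops out. The mean log2 CPM of the 9 lid genes minus that of the 14 core genes was 0.35 ± 0.024 in H3A110Ccup1F8* and 0.20 ± 0.012 in cup1F8* (SD, n = 4 each). In H3A110Cgsh1Δ and gsh1Δ it was -0.25 ± 0.051 and -0.29 ± 0.041 (SD, n = 3 each). In SCEG it was -0.13 ± 0.036 in H3A110C and -0.16 ± 0.026 in WT, and in SC -0.18 ± 0.038 in H3A110C and -0.17 ± 0.062 in WT (SD, n = 3 each). The difference was above 0 in all 8 libraries with cup1F8* and below 0 in the other 18. These CPM are not per kilobase, so that 0 does not mark equal levels of lid and core genes. Per kilobase, the median was 314 for the lid and 342 for the core in cup1F8*, and 347 and 346 in H3A110Ccup1F8*. In both gsh1Δ strains the lowest and highest libraries lay at -0.34 and -0.19, and in H3A110C and WT in SCEG at -0.19 and -0.09. These are descriptions of each library, with no test. The base genes minus the core genes gave 0.68 ± 0.0084 in H3A110Ccup1F8* and 0.62 ± 0.010 in cup1F8* (SD, n = 4 each), and means between 0.48 and 0.56 in the other 6 groups.

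**Figure D3:**
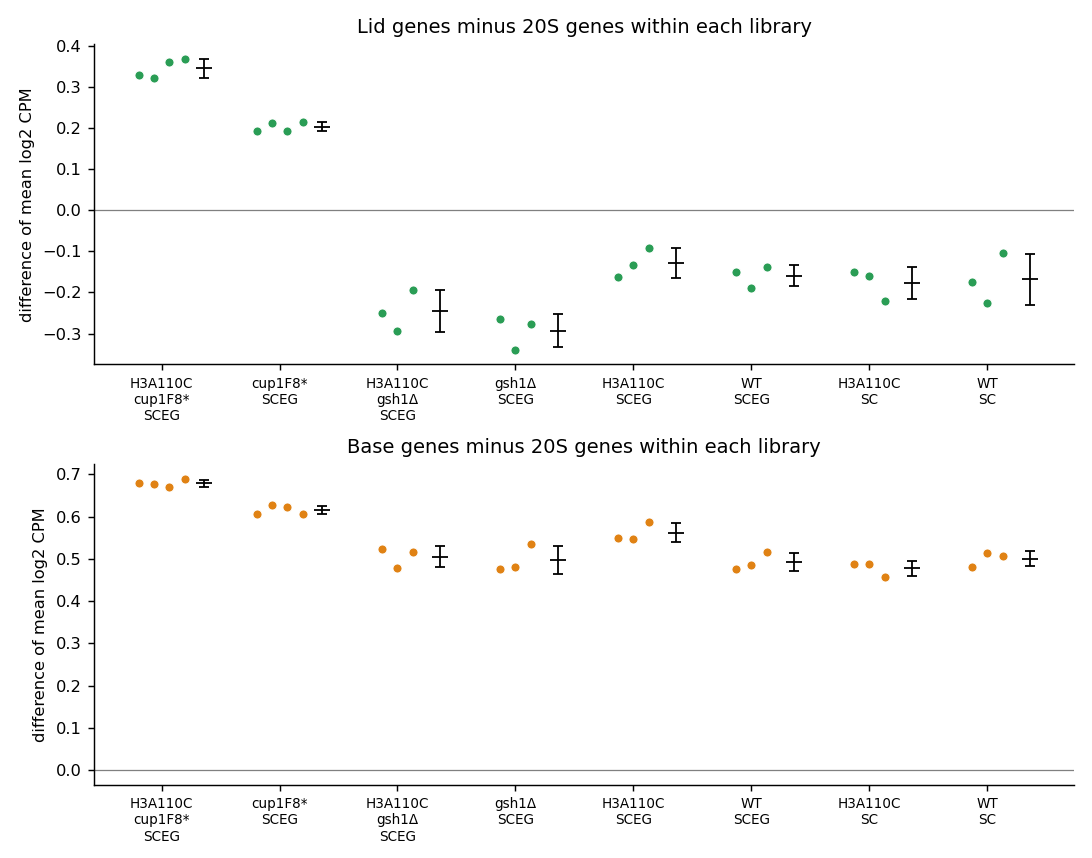
The mean log2 CPM of the lid genes (upper panel) and of the base genes (lower panel) minus that of the 20S genes, in log2 units (vertical axis), in each library (points) of each group (horizontal axis), with the group's mean and SD beside the points. Lid minus 20S is positive in the 8 libraries with cup1F8* (0.19 to 0.37) and negative in the other 18. CPM are not divided by gene length here, so that 0 does not mark equal levels.

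The comparison of H3A110Ccup1F8* with cup1F8* asks what H3A110C changes in cells without functional metallothionein. Here 6 members were called higher and 4 lower, where 24.6% of 5906 genes were called higher and 25.9% lower. RPN4 had the largest rise, 0.41 on the log2 scale (standard error 0.057, edgeR adjusted p = 0.000105), and all 4 libraries of H3A110Ccup1F8* were above all 4 of cup1F8*. RPN7, a scaffold gene of the lid, had 305, 295, 312 and 313 CPM in H3A110Ccup1F8*, against 246, 244, 258 and 229 in cup1F8* (log2 fold change 0.30, standard error 0.0468). SEM1 and RPN11 in the lid and RPN1 and RPT3 in the base also rose, by 0.18 to 0.21. The 4 falls were those of PUP1, PUP2 and PRE6 in the core and RPT1 in the base. PUP1 had 209.7, 208, 208 and 202 CPM in H3A110Ccup1F8*, against 253, 249, 266 and 238 in cup1F8*, with no overlap (log2 fold change -0.31, standard error 0.0452, edgeR adjusted p = 0.000129). PUP2 had 288, 309, 306 and 291 CPM, against 332, 324, 331 and 332 (log2 fold change -0.18, standard error 0.0418). The split between higher and lower depended on the fit, with 9 higher and 3 lower under total counts, 6 and 1 with all 20 SCEG libraries in 1 fit, and 9 and 2 without cup1F8* replicate 3. The shares of all genes called higher and lower were then 27.6% and 22.7%, 20.8% and 16.5%, and 23.6% and 23.5%, in the same order.

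Whether H3A110C acted differently in cup1F8* than in WT was tested by an interaction term. It was called for 3 members, 2 positive and 1 negative, where 8.36% of 5954 genes were called positive and 7.79% negative. For RPN4 the difference of the log2 fold changes was 0.58 (standard error 0.159, edgeR adjusted p = 0.0219), with 0.41 for H3A110C in cup1F8* and -0.17 in WT. For RPN7 it was 0.32 (standard error 0.0868, edgeR adjusted p = 0.0199), and for PUP1 -0.32 (standard error 0.0842, edgeR adjusted p = 0.0179). The RPN4 call was lost without H3A110C replicate 1 (0.48, adjusted p = 0.0602), H3A110C replicate 2 (0.53, 0.0555) or WT replicate 3 (0.45, 0.0546), and the PUP1 call without H3A110C replicate 3 (-0.27, 0.0516). With all 20 SCEG libraries in 1 fit, RPN4 alone was called.

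**Figure D4:**
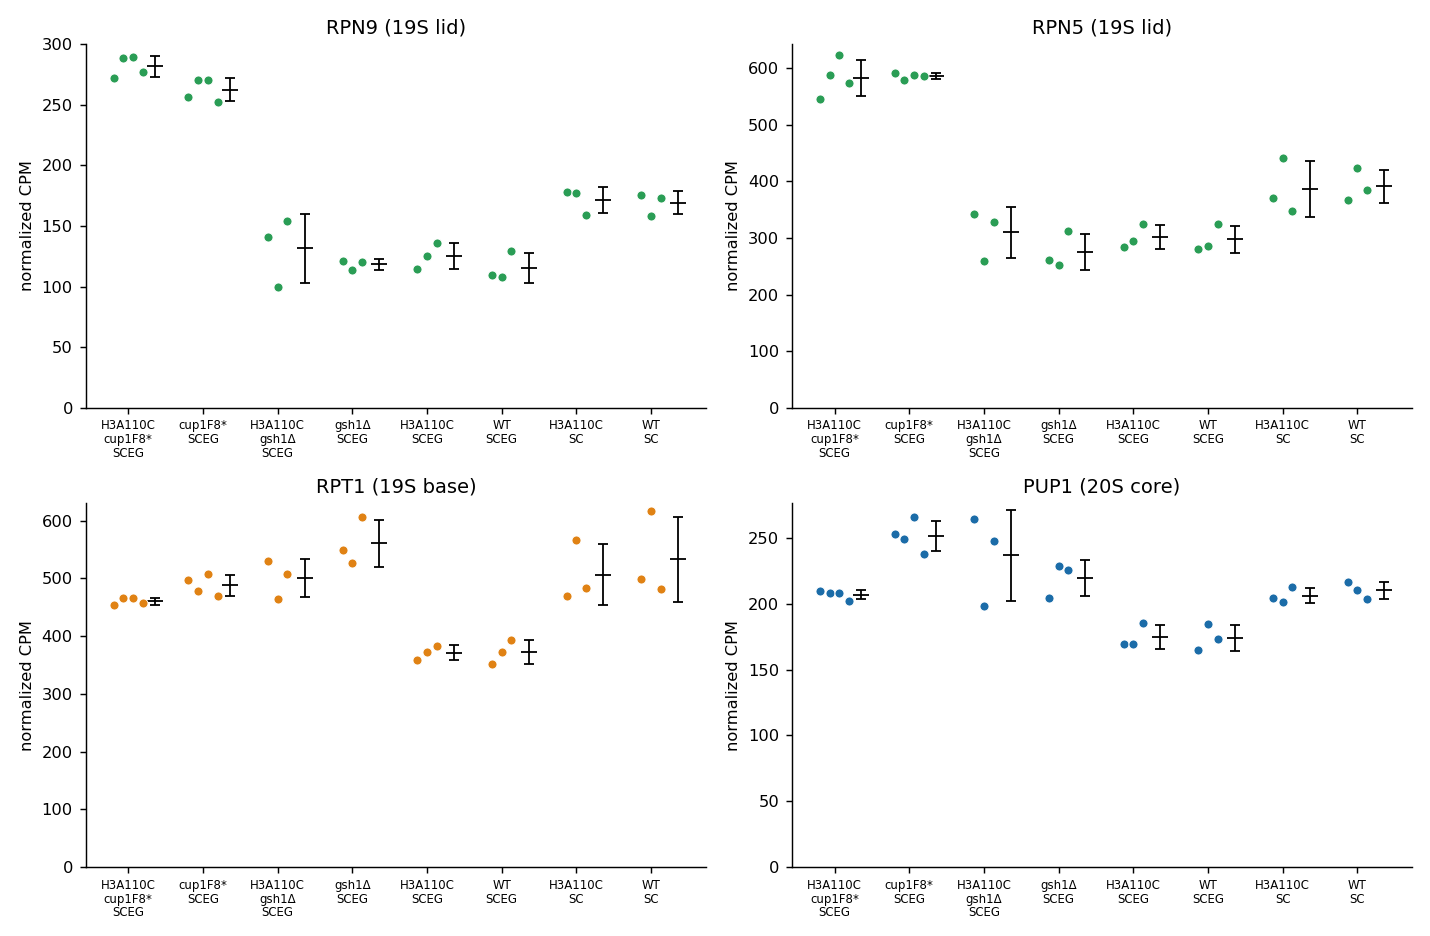
Normalized CPM (vertical axes, from 0) of RPN9 and RPN5 in the lid, RPT1 in the base and PUP1 in the 20S core in each of the 26 libraries (points), by strain and medium (horizontal axes), with the mean and SD of each group beside the points. RPN9 and RPN5 are highest in the groups with cup1F8*, RPT1 is above WT in gsh1Δ, and PUP1 is lower in H3A110Ccup1F8* than in cup1F8*.

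The comparison of gsh1Δ with WT in SCEG asks how the genes responded to the loss of glutathione synthesis, and its 3 WT libraries are those set against cup1F8*. The rises called here were in the core and in 1 ATPase gene, and no lid gene was called. Of the 34 members, 6 were called higher and 0 lower, where 12.5% of 5678 genes were called higher and 12.8% lower. The members called were PRE2, PRE3, PUP1, PRE10 and PUP3 in the core and RPT1 in the base. PRE2, PRE3 and PUP1 encode the 3 peptidases of the core, a grouping made after their values were seen. At an unadjusted p below 0.05, 13 members were higher and 0 lower, where 38.5% of all genes passed in either direction. These were 7 genes of the core, 4 of the base and 2 of the lid, so that genes passing this limit were not confined to the core. The share of all genes that passed upward alone is not given here, and no excess is read from these counts. DESeq2 called 5 higher and 0 lower. The median log2 fold change was 0.20 for the core, 0.20 for the base and 0.05 for the lid, beside 0.02 over all genes.

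RPT1 (YKL145W), an ATPase of the base, had 549, 526 and 606 CPM in gsh1Δ, against 352, 372 and 393 in WT, the largest change among the members (log2 fold change 0.60, standard error 0.0926, edgeR adjusted p = 0.00104). PRE2 (YPR103W), which encodes the chymotrypsin-like peptidase, had 309, 309 and 353 CPM in gsh1Δ, against 228, 255 and 262 in WT (0.39, standard error 0.0944). In both genes every gsh1Δ library was above every WT library. PRE10, an alpha ring gene, had 273, 294 and 316 CPM, against 224, 243 and 244 (0.33, standard error 0.0892), and PUP3, a beta ring gene, had 255, 249 and 266, against 210.5, 211 and 223 (0.27, standard error 0.081). RPN4 itself was not called (0.17, standard error 0.122, edgeR adjusted p = 0.351), nor were the other ATPase genes RPT2 to RPT6 (0.07 to 0.28). The count of 6 fell to 2 without WT replicate 1 and to 3 without gsh1Δ replicate 2 or 3. Of all genes, 10.1%, 10% and 9.06% were then called higher and 10.9%, 12.1% and 9.32% lower, in the same order. The PRE10 call was lost in each of these cases (adjusted p between 0.0531 and 0.0844), and the PUP3 call without any gsh1Δ library or WT replicate 1 or 2 (adjusted p between 0.0507 and 0.103), in DESeq2 (0.0796) and without a filter on low counts (0.0508).

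In H3A110Cgsh1Δ against H3A110C, 3 members were called higher, RPT1, PRE2 and PUP3, and 0 lower, where 4.59% of 5685 genes were called higher and 4.03% lower. All 34 fold changes were above 0, with a median of 0.22 for the subunits. RPT1 had 529, 464 and 507 CPM in H3A110Cgsh1Δ, against 359, 372 and 384 in H3A110C (log2 fold change 0.42, standard error 0.0939, edgeR adjusted p = 0.0316). PRE2 had 387, 290.0 and 351 CPM, against 236, 233 and 249 (0.51, standard error 0.12, edgeR adjusted p = 0.0389), and PUP3 had 308, 248 and 292, against 196, 199.9 and 213 (0.46, standard error 0.109, edgeR adjusted p = 0.0372). RPN4 was at 0.59 (standard error 0.19) and was not called (edgeR adjusted p = 0.1), while DESeq2 called it (adjusted p = 0.0423). Replicate 2 of H3A110Cgsh1Δ, which stood apart over all genes, was the lowest of its group for every gene named here. Without it, 25 members were called higher, among 15.9% of all genes called higher and 14.7% lower, and RPN4 was called as well (0.77, adjusted p = 0.00188). Without any 1 of the other 5 libraries, 0 members were called, beside 1.87% to 3.13% of all genes called higher and 0.979% to 2.24% lower. DESeq2 called 5 members, all higher, beside 5.82% of all genes higher and 4.77% lower, and the fit of all 20 SCEG libraries called 10, all higher, beside 12.7% and 10.6%.

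The comparison of H3A110C with WT asks what the histone change does by itself, and it called none of the members. In H3A110C against WT, 0 of the 34 members were called in SC and 0 in SCEG, where 0.0174% of 5737 and 0.0353% of 5671 genes were called in either direction. DESeq2 called 0 members in both media, and 0 passed an unadjusted p below 0.05. The 33 subunits' log2 fold changes lay between -0.08 and 0.04 in SC, with standard errors of 0.0693 to 0.203, and between -0.11 and 0.15 in SCEG, with standard errors of 0.0729 to 0.141. The RPN4 value in SC was -0.07 with a standard error of 0.0965, and in SCEG -0.17 with one of 0.152. In H3A110Cgsh1Δ against gsh1Δ, 0 members were called in edgeR or DESeq2 and 0 passed an unadjusted p below 0.05, where 0.844% of 5690 genes were called in either direction. Without H3A110Cgsh1Δ replicate 2, 3 members were called higher, RPN4 among them (0.43, adjusted p = 0.0175), beside 8.49% of all genes called higher and 9.33% lower. The interaction of H3A110C with gsh1Δ was called for 0 members, with 0.365% of 5751 genes called, and its interaction with the medium for 0 members, with 0% of 5915 genes called. Neither had a member at an unadjusted p below 0.05, and DESeq2 called 0 members in both. Without SC library B of H3A110C, of WT or of both, 0 members were called in H3A110C over WT in SC and in the interaction with the medium, and the subunits' median in SC was -0.10, 0.06 and -0.03, beside -0.01 with all libraries. Without H3A110Cgsh1Δ replicate 2, the interaction with gsh1Δ was called for 0 members, beside 2.59% of all genes called positive and 2.47% negative.

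Between media, RPN4 was higher in SCEG, and many subunit genes were lower there relative to all genes. In WT, RPN4 had 163, 145 and 199 CPM in SCEG, against 109, 121 and 118 in SC (log2 fold change 0.59, standard error 0.128, edgeR adjusted p = 0.00794), and the groups did not overlap. Of the 33 subunits, 15 were called lower in SCEG and 0 higher, and all 33 fold changes were below 0, between -0.67 and -0.08 with a median of -0.30. In this comparison 25.6% of 5816 genes were called higher and 25.3% lower. The falls were spread over the groups, with 5 of 14 core genes, 5 of 10 base genes and 5 of 9 lid genes. RPN13 (YLR421C), a ubiquitin receptor of the base, had 67.8, 83.6 and 92.3 CPM in SCEG, against 130.3, 144 and 128 in SC, the largest fall (log2 fold change -0.67, standard error 0.134). PRE10 had 224, 243 and 244 CPM in SCEG, against 350.1, 388 and 337 in SC (-0.55, standard error 0.0931). RPN7, the smallest fall called, had 213, 209 and 233 CPM in SCEG, against 268, 286 and 278 in SC (-0.30, standard error 0.0828). Its call was lost without SCEG replicate 1 or 2 or SC library A or C (adjusted p between 0.0568 and 0.0748). Among the other genes called, RPN9 fell by 0.50, RPT1 by 0.47, PRE2 by 0.46 and PRE5 by 0.45 on the log2 scale.

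In H3A110C the count was 1 higher, RPN4, and 12 lower, where 23.8% of 5795 genes were called higher and 23.4% lower. RPN4 had 128, 139.6 and 181 CPM in SCEG, against 107, 116 and 105 in SC (log2 fold change 0.52, standard error 0.147, edgeR adjusted p = 0.0254). The largest falls were those of PRE5, an alpha ring gene, with 197, 203 and 223 CPM in SCEG, against 298, 345 and 314 in SC (-0.55, standard error 0.101), and of PRE10, with 236, 236 and 252, against 337, 380.1 and 351 (-0.50, standard error 0.0907). RPN7 was the smallest fall called, with 211, 203 and 228 CPM in SCEG, against 264, 276 and 274 in SC (-0.28, standard error 0.0867). The RPN4 call was lost without SCEG replicate 2 or 3 or SC library A or C (adjusted p between 0.0644 and 0.0859), and the RPN7 call without SCEG replicate 1 or 2 or either of those SC libraries (between 0.0786 and 0.113).

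The number of falls called changed with the scaling between media. TMM factors were 0.989 to 1.11 in SCEG and 0.812 to 0.887 in SC, and under total counts alone the median of all genes was 0.20 in WT and 0.22 in H3A110C, beside 0.00 and 0.01 under TMM. Under that scaling 1 member was higher and 2 lower in each strain, beside 34.4% and 16.6% of all genes called higher and lower in WT and 33.6% and 14.5% in H3A110C. Relative to the median of all genes, the subunits' median was -0.30 in WT and -0.28 in H3A110C under both scalings. As the scaling moves all genes by nearly the same amount, this likeness was fixed in advance and is no check of the falls. As a share of all counted reads, the 33 subunits took 0.783% to 0.922% in WT in SCEG and 0.871% to 0.969% in WT in SC, which overlap. The 16 members called in WT became 5 without SCEG replicate 1, 7 without SCEG replicate 2 and 8 without SC library A. Of these, 4, 6 and 7 were lower, where 20.4%, 22.3% and 19.8% of all genes were called lower and 20.5%, 21.3% and 20% higher. The 13 in H3A110C became 4, 2 and 7 without SCEG replicate 1, 2 or 3 and 5 without SC library A or C. There, 3, 2, 7, 5 and 5 were lower, beside 19.1%, 20.8%, 19.3%, 16.5% and 16.6% of all genes. Genes called higher made up 17.9%, 18.7%, 18.1%, 19.1% and 18.8%. Without SC library B, which stood apart, 19 and 14 were called, and the shares of all genes in those fits are not given here.

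Genes that work with the proteasome were followed by lists. In cup1F8* against WT, 6 of 10 genes of assembly chaperones were called higher and 1 lower. HSM3, NAS2 and TMA17 rose by 0.81, 0.54 and 0.37, and POC4, which encodes a chaperone of the alpha ring, fell by 0.91 on the log2 scale. Of 7 proteasome-associated proteins, 4 rose and 2 fell. The ubiquitin ligase gene HUL5 (0.84), SPG5 (0.71) and the deubiquitinase gene UBP6 (0.68) were highest, and the genes of the alternative cap Blm10 and of Fub1 were lower (BLM10 -0.49, FUB1 -0.29). Of 15 genes of ubiquitin, its conjugation and the Cdc48 machine, 8 rose and 4 fell. They were led by DOA4, which encodes a deubiquitinase that recycles ubiquitin (1.47), the polyubiquitin gene UBI4 (1.26) and the shuttle factor gene DDI1 (0.55), while UBP14, UBC4 and UBC5 fell by 0.50, 0.42 and 0.17. UBI4 shares ubiquitin repeats with other genes and UBC4 and UBC5 are near copies of each other, so that their counts are less certain. Of 7 genes named as regulators of RPN4 or of its turnover, 5 rose and 0 fell, with MUB1 (0.71), HSF1 (0.68) and PDR3 (0.45) highest. The backgrounds are those given above for this comparison, 34.3% and 34.8%.

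In H3A110Ccup1F8* against H3A110C, the same lists had 4 of 10 higher and 2 lower (assembly chaperones), 5 of 7 and 1 (associated proteins), 11 of 15 and 1 (ubiquitin genes), and 5 of 7 and 0 (regulators), where 35.1% of all genes were called higher and 33.9% lower. HSM3 (1.13), TMA17 (1.04) and RPN14 (0.55) rose and POC4 (-0.99) and IRC25 (-0.23) fell among the chaperones. UBP6 (0.80), HUL5 (0.77) and STS1 (0.70) rose and BLM10 (-0.17) fell among the associated proteins. DOA4 (1.25), UBI4 (1.02) and UFD2 (0.66) rose and DSK2 (-0.57), a shuttle factor gene, fell among the ubiquitin genes, and MUB1 (0.92), PDR3 (0.53) and YAP1 (0.52) rose among the regulators. In gsh1Δ against WT, 0 of 10 chaperone genes were called, while SPG5 (0.29), DOA4 (0.81), UBC5 (0.46), UBI4 (0.42), UFD1 (0.31), HSF1 (0.43) and UBR2 (0.43) were higher and no listed gene was lower, where 12.5% of all genes were called higher and 12.8% lower. In H3A110Cgsh1Δ against H3A110C, 0 genes of these lists were called, where 4.59% of all genes were called higher and 4.03% lower.

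The fold changes were last set beside the promoters. In cup1F8* over WT, 19 of the 27 genes with the longer motif were called higher and 1 lower (median log2 fold change 0.29, between -0.25 and 1.14). All 3 genes with the shorter form alone rose (0.19 to 0.72), and of the 3 subunit genes with neither form, RPN13 rose and SEM1 and RPN10 were not called. RPN9 and PRE8, the largest rise and the only fall called, both hold GGTGGCAAA, 100 and 111 bases before their start codons. RPN4 itself, whose window holds neither form, rose in this comparison. In gsh1Δ over WT, 5 of the 27 genes with the longer motif were called higher (median log2 fold change 0.15), 1 of the 3 with the shorter form alone (median 0.05) and 0 of the 3 subunit genes with neither (median 0.26). These groups are small and are described without a test.

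**Figure D5:**
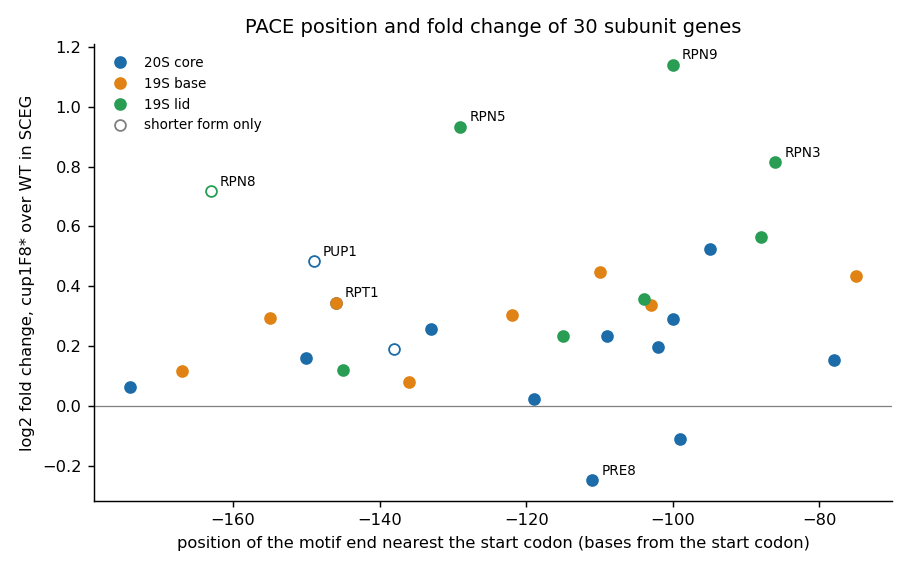
The log2 fold change of cup1F8* over WT (vertical axis) of the 30 subunit genes whose window holds the element, against the distance of the motif from the start codon in bases (horizontal axis), coloured by subunit group, filled for the longer motif and open for the shorter form alone; RPT1 and PRE2 share a distance of 146 bases and a fold change of 0.34 and lie on each other. Fold changes from -0.25 (PRE8) to 1.14 (RPN9) occur at like distances.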

How the data were processed

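Poly-A libraries were aligned by the authors to R64-1-1 (sacCer3) with strand-specific HISAT2 and counted with featureCounts, and the deposited counts, 1 column for each of 26 libraries, were used without normalization. The deposited table of counts divided by DESeq2 size factors was not used. Versions are not given in the sources used here. SCEG columns were matched to samples by replicate number. SC columns carry letters and were matched to their group only. Each pair of groups was fitted by itself in edgeR 4.0.16 (R 4.3.3, limma 3.58.1) with TMM, its default filter on low counts and the quasi-likelihood test, and differences of effects by a contrast over 4 groups. Log2 CPM used a prior count of 2. The standard error is the log2 fold change divided by the square root of F. Tested on simulated data with the same dispersion for every gene, the comparison of gsh1Δ with WT recovered 98% of 2-fold and 100% of 4-fold changes. This was over 5678 genes with 7 false calls, and the interaction with gsh1Δ recovered 77% and 98% of such changes. Changes below 2-fold, as those of all members in gsh1Δ over WT were, were not simulated, and recovery of these is not known. In SC, deviations of same-lettered libraries correlated at 0.725 (A), 0.889 (B) and 0.629 (C). The highest correlations with another letter were 0.69, -0.734 and 0.76, so that only B was clearly paired. The replicate numbers in SCEG are taken up at the end. Alternatives were DESeq2 1.42.0, its size factors in edgeR, total counts, no filter or at least 10 counts in every library, 1 fit of all SCEG libraries, a replicate block, and each library left out. Leaving out SC library B of both strains was added after seeing the data. Members, gene lists, named genes and tests were chosen with earlier results of these data known. Named were RPN4 and, in each comparison, the 2 highest and 2 lowest fold changes among called members, and up to 3 called genes a direction in the other lists; RPN3, RPN8, RPN10, RPN13, PUP2 and the ATPase genes in cup1F8* over WT are given beyond this rule. The motif search used the R64 reference sequence from RefSeq, Python 3.11.15 and matplotlib 3.10.9; 6008 of 6692 identifiers were found in its annotation. At most 1.03 CPM is what 3 counts show in any library, which covers counting error only. Replicates are independent experiments according to the methods.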

Additional observations from a re-analysis of the deposited data

Results flagged for a closer look

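In 68 groups of 4 libraries (34 genes in the 2 groups with cup1F8*), 5 had 1 library far from the other 3, where chance gives about 1 in 20. In cup1F8*, PRE3 had 192.4 CPM in replicate 4 (196.7 to 197.5 in the others), PUP2 had 324 in replicate 2 (331 to 332) and RPN1 had 698 in replicate 3 (619 to 623). In H3A110Ccup1F8*, PRE9 had 268 CPM in replicate 4 (274 to 276) and RPN6 had 476 in replicate 3 (443 to 447).

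The effect of H3A110C differed between cup1F8* and WT in the interaction test for RPN4 (0.58), RPN7 (0.32) and PUP1 (-0.32), on the log2 scale. In cup1F8* itself, H3A110C came with 0.41, 0.30 and -0.31, and in WT with -0.17, -0.02 and 0.01.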

How the results depend on the processing

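Of 190 recomputed counts of called members, 167 lay within 1.5 times the count reported. Comparisons with 0 members called are included, and there a repeated 0 counted as within. The total therefore overstates how steady the counts above 0 were. Under total counts alone, 3 members instead of 16 were called between media in WT and 3 instead of 13 in H3A110C. DESeq2 called 5 instead of 3 in H3A110Cgsh1Δ over H3A110C, and the fit of all 20 SCEG libraries 10. That fit called 1 instead of 3 in the interaction of H3A110C with cup1F8*. With each library left out in turn, counts ranged between 5 and 19 (media in WT), 2 and 14 (media in H3A110C), 2 and 6 (gsh1Δ over WT), 0 and 25 (H3A110Cgsh1Δ over H3A110C), and 0 and 3 (H3A110Cgsh1Δ over gsh1Δ). The interaction of H3A110C with the medium for RPN4, never called, ranged between -0.25 and 0.035 and changed sign. The cause was not tested.

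Replicate numbers in SCEG did not pair libraries throughout: correlations of same-numbered deviations lay between -0.171 and 0.45, and not all exceeded 0.1 in any comparison. In H3A110C over WT in SCEG they were 0.0495, 0.45 and 0.305, each above the highest with another number (0.0123, -0.155 and 0.135). In the other SCEG comparisons, not all were above it. With the number as a replicate block, the counts were 25 (cup1F8* over WT), 26 (H3A110Ccup1F8* over H3A110C), 9 (H3A110Ccup1F8* over cup1F8*), 6 (gsh1Δ over WT), 2 (H3A110Cgsh1Δ over H3A110C), 3 (interaction with cup1F8*) and 0 in the remaining SCEG comparisons, and 0 with the letter as a block in SC. PRE7, PRE9, RPN1 and, in H3A110Cgsh1Δ over H3A110C, RPT1 lost their calls under the block (adjusted p between 0.0501 and 0.0675). No member fell below 301 counts in any library.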
